A study of Mus musculus with 10 samples.

Results

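Messenger RNA of the enzymes that turn squalene epoxide into lanosterol and lanosterol into cholesterol was followed in mouse spinal cord at 8 and 4 weeks of age. The genes are Lss, Cyp51, Tm7sf2, Msmo1, Nsdhl, Hsd17b7, Ebp, Sc5d and Dhcr7. They were taken by Entrez Gene identifier and make up 9 of the 26301 identifiers in the deposited tables. All 9 passed the filter on low counts that left 15540 genes for testing. The spinal cords came from C57BL/6 mice, an inbred laboratory strain, and no genotype or treatment is named for any group. There were 3 female and 3 male libraries at 8 weeks and 2 female and 2 male libraries at 4 weeks, and both ages were compared over the sexes and within each. Bulk RNA of the cord was extracted with Trizol and made into libraries by Illumina protocols. The labels number the libraries of a group without saying that they came from separate mice, so a p-value here reflects spread among libraries only, and that spread may be technical.

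Cholesterol is a main lipid of myelin, and in the central nervous system it is made locally because plasma lipoproteins do not cross the blood-brain barrier. Lanosterol, the first sterol of the pathway, loses methyl groups, and its double bonds are moved and reduced by enzymes of the endoplasmic reticulum until cholesterol is left. Transcription of the pathway is driven by SREBP proteins, membrane-bound factors that are released when cell sterol is low, with the factors NF-Y, which binds CCAAT boxes, and Sp1, which binds GC boxes.

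The promoters of 4 of the genes are shown because 8 of the 9 genes fell at 8 weeks: Lss had the largest fall with age over both sexes, Cyp51 and Msmo1 were the most abundant, and Nsdhl was the gene whose difference did not pass the test. Each is the RefSeq sequence of assembly GRCm38.p6, 5′ to 3′ on the gene's own strand, from 250 bases before to 50 bases after the annotated start. Lss lies at chr10:76531355-76531654 on the plus strand, Cyp51 at chr5:4104648-4104947 on the minus strand, Msmo1 at chr8:64733529-64733828 on the minus strand and Nsdhl at chrX:72918271-72918570 on the plus strand. Capitals mark CCAAT or its reverse complement ATTGG, and the sterol element core TCACNNCA read on either strand; where both overlap, as in Msmo1, the capitals run on.
Lss: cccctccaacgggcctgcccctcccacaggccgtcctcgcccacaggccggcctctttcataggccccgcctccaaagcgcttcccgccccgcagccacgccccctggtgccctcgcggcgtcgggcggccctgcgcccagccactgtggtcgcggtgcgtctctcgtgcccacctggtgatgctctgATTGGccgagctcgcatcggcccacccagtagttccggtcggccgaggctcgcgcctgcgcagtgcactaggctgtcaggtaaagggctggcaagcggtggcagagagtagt
Cyp51: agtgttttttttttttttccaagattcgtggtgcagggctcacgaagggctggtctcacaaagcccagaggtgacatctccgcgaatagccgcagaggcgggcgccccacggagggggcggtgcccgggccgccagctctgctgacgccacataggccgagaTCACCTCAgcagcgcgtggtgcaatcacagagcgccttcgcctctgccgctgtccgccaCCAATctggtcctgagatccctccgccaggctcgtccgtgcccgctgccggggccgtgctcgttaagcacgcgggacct
Msmo1: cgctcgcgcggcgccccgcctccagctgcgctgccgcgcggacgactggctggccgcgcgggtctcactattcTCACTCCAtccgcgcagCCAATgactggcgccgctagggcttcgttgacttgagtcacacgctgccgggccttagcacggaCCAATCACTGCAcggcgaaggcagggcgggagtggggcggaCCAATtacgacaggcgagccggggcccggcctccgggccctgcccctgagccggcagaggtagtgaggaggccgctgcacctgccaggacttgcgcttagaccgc
Nsdhl: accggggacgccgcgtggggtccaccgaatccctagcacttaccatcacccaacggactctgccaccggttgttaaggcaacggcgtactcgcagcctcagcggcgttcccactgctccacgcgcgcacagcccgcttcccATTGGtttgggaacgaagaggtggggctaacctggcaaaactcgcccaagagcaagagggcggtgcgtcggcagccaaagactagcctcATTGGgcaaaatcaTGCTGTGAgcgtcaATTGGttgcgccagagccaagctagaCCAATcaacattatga

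All 9 genes had a promoter entry, with 11 start windows among them, since Dhcr7 has 3. A CCAAT box was present, on either strand, in at least 1 window of 9 of the 9 genes, against 42.5% of the 11817 tested genes with an entry and 41.1% of all 27025 genes with one. The GC box GGGCGG was present in 9 of 9 genes as well, against 66.6% of the tested genes. The sterol regulatory element TCACNCCAC was found in 0 of the 9 genes and in 1.4% of the tested genes. Its shorter core TCACNNCA, which was searched after the longer form gave no match, occurred in 6 of the 9 genes and in 13.5% of the tested genes, and any copy of the longer form would also hold it. Cyp51, Msmo1, Nsdhl, Hsd17b7, Sc5d and Dhcr7 held the core, and Lss, Tm7sf2 and Ebp did not. In Cyp51 the core began 88 bases before the start and in Hsd17b7 117 bases before it. Msmo1 held 2 copies and 3 CCAAT boxes, and Nsdhl held 4 CCAAT boxes. A match is a run of letters and not a measured binding site, and a missing match says only that these letters are absent from the window.

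Library totals ranged from 8453559 to 11594610 counts, with 18407 to 18884 identifiers counted at least once. Levels are given as CPM, a gene's reads relative to the library's total after TMM scaling, a correction for differences in composition. Of the 15540 genes, 1028 differed with age over both sexes, 250 of them higher and 778 lower at 8 weeks, and the median of the log2 fold changes over every gene tested was 0.01. The cord's segmental identity genes, led by Hoxc8 and Hoxc10, were present in every library, with summed levels of 151 to 178 CPM at 8 weeks and 123 to 144 CPM at 4 weeks. Libraries also differed in markers of other tissues: both male 4-week libraries held more adrenal cortex markers, the 4-week libraries held more skeletal muscle and fat markers, and male 8-week libraries 2 and 3 held lung markers. Their levels are given after the age results.

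Sterol synthesis RNA beyond squalene was lower at 8 weeks. Of the 9 genes, 8 fell with age over both sexes, while 5.01% of all tested genes were called lower (edgeR's quasi-likelihood test, two-sided, Benjamini-Hochberg adjusted over 15540 genes at 0.05). The median log2 fold change of the 9 was -0.40 and their range ran between -0.65 for Lss and -0.23 for Nsdhl, which was the 1 gene not called. For 8 of the 9 genes every 8-week library lay below every 4-week library, as did 4.84% of all tested genes. The summed level of the 9 genes was 879 to 972 CPM at 8 weeks against 1188 to 1354 CPM at 4 weeks. In whole tissue RNA, fewer cells of a type and less RNA per cell cannot be told apart.

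**Figure D1:**
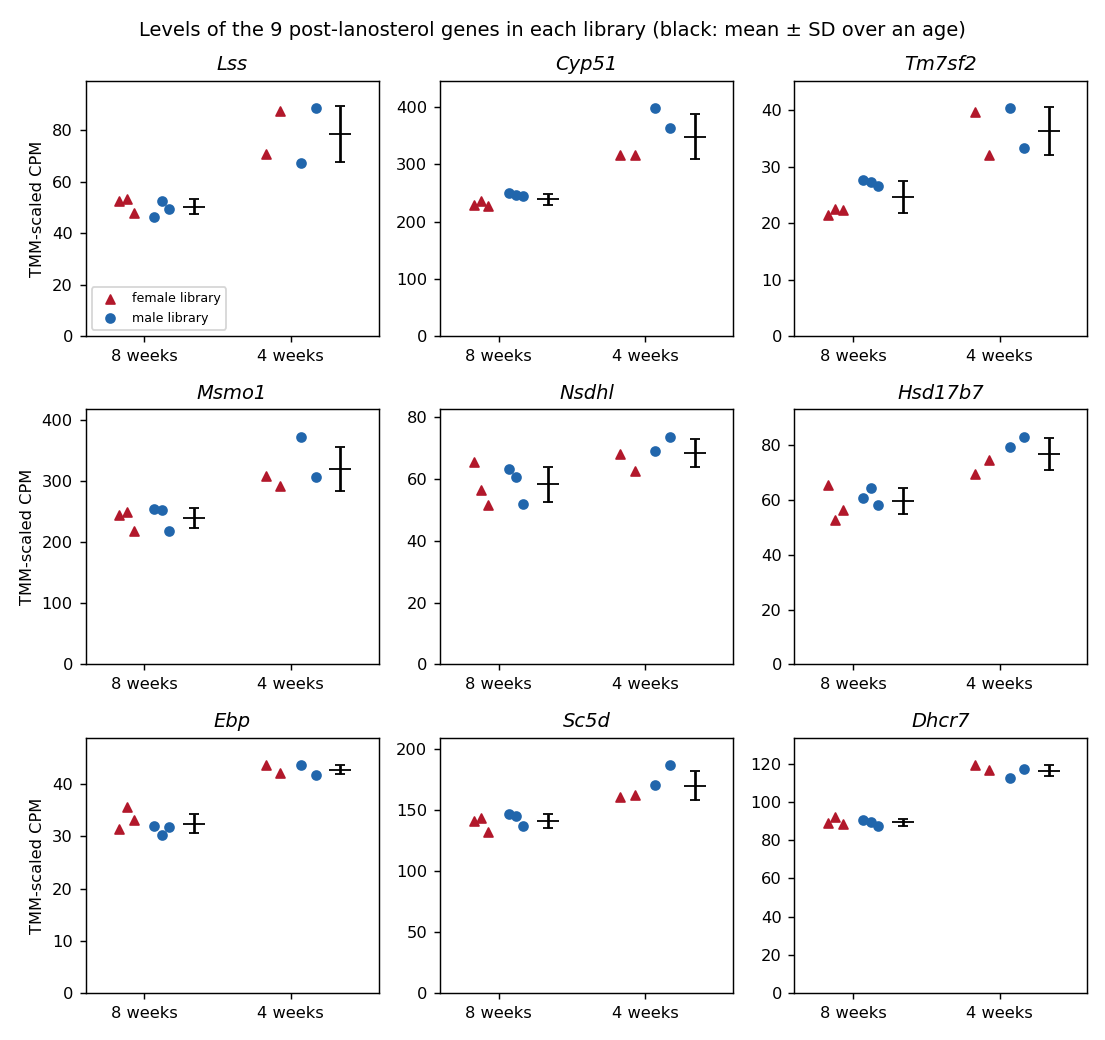
Level of each of the 9 genes in each of the 10 libraries, in TMM-scaled CPM on a y axis that starts at 0, 1 panel per gene, with 8-week libraries left of 4-week libraries, females as triangles and males as circles; bars are the mean and SD of each age (n = 6 at 8 weeks, n = 4 at 4 weeks). The 8-week libraries sit below the 4-week libraries in 8 panels, and in the Nsdhl panel 2 of the 6 overlap with them.

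Lss encodes lanosterol synthase, which folds squalene epoxide into the rings of lanosterol. Its level was 52.5, 53.3 and 47.95 CPM in the female and 46.4, 52.6 and 49.4 CPM in the male 8-week libraries, against 70.8 and 87.5 CPM in the female and 67.35 and 88.5 CPM in the male 4-week libraries. The 6 libraries at 8 weeks lay within 7 CPM of each other, while the 4 at 4 weeks split by library number, with library 2 above library 1 in both sexes, and the ages did not overlap. The mean was 50.4 ± 2.86 CPM at 8 weeks (SD, n = 6) and 78.5 ± 11.1 CPM at 4 weeks (SD, n = 4). On the log2 scale the difference was -0.65 with a standard error (SE) of 0.08 (edgeR adjusted p = 0.000299). By the GENCODE M21 annotation of GRCm38, 8.2% of its exon bases overlap the antisense gene 4930483K19Rik, and no strand setting is given for the counts, so reads of the 2 genes cannot be told apart there.

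Cyp51 encodes the cytochrome P450 that removes the first methyl group from lanosterol and was, with Msmo1, among the most abundant of these genes in CPM. It had 228.2, 235.5 and 227.8 CPM in the female and 249.2, 246.3 and 245.1 CPM in the male 8-week libraries, against 316.7 and 316.7 CPM in the female and 397.7 and 362.7 CPM in the male 4-week libraries. The ages were far apart, and within each age every female library lay below every male library. The mean was 239 ± 9.46 CPM at 8 weeks (n = 6) and 348.5 ± 39.4 CPM at 4 weeks (n = 4). Its log2 difference of -0.54 (SE 0.05) had the smallest adjusted p of the 9 genes, 1.79e-05 by edgeR. Exons of Akap9 on the opposite strand overlap 4.2% of its exon bases.

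Tm7sf2 encodes a reductase that saturates the double bond left by that demethylation. Its level was 21.5, 22.5 and 22.4 CPM in the female and 27.6, 27.2 and 26.65 CPM in the male 8-week libraries, against 39.65 and 32.0 CPM in the female and 40.4 and 33.4 CPM in the male 4-week libraries. The ages did not overlap, and at 8 weeks the 3 female libraries lay below the 3 male ones. The mean was 24.6 ± 2.80 CPM at 8 weeks and 36.4 ± 4.27 CPM at 4 weeks, a log2 difference of -0.56 (SE 0.09, edgeR adjusted p = 0.00114). At 4 weeks library 1 was above library 2 in both sexes, which is the reverse of the order for Lss.

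The next 3 genes act in turn to strip the methyl groups that lanosterol carries on its first ring. Msmo1, the oxidase that opens each round, had 245.6, 249.9 and 218.9 CPM in the female and 255.5, 252.7 and 218.9 CPM in the male 8-week libraries, against 308.1 and 292.7 CPM in the female and 373.1 and 306.8 CPM in the male 4-week libraries. The highest 8-week library was below the lowest 4-week library, and male 4-week library 1 stood above the other three. The mean was 240.2 ± 16.8 CPM at 8 weeks and 320.2 ± 35.95 CPM at 4 weeks, and the log2 difference was -0.41 (SE 0.07, edgeR adjusted p = 0.00242).

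Nsdhl, the dehydrogenase that takes off the oxidized carbon, is X-linked. It had 65.4, 56.6 and 51.7 CPM in the female and 63.2, 60.8 and 51.9 CPM in the male 8-week libraries, against 68.1 and 62.6 CPM in the female and 69.2 and 73.6 CPM in the male 4-week libraries. Here the ages overlapped, since female and male 8-week library 1 lay above female 4-week library 2. Means were 58.2 ± 5.78 CPM at 8 weeks and 68.4 ± 4.54 CPM at 4 weeks, and the log2 difference of -0.23 had a 95% interval of -0.40 to -0.07. The unadjusted p was 0.00904 and the adjusted p 0.0924 by edgeR, so it was not called over all genes. Without female 8-week library 1 it was called, with a log2 difference of -0.28 and an adjusted p of 0.0445.

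Hsd17b7, the ketone reductase that ends each round, had 65.3, 52.7 and 56.3 CPM in the female and 60.45, 64.3 and 58.1 CPM in the male 8-week libraries, against 69.45 and 74.4 CPM in the female and 79.1 and 82.9 CPM in the male 4-week libraries. The ages did not overlap, but female 8-week library 1 came within 5 CPM of the lowest 4-week library. The mean was 59.5 ± 4.81 CPM at 8 weeks and 76.5 ± 5.82 CPM at 4 weeks, a log2 difference of -0.36 (SE 0.07, edgeR adjusted p = 0.00405).

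The last 3 enzymes work on the double bonds of the ring. Ebp, the X-linked isomerase that shifts a double bond, had 31.5, 35.7 and 33.2 CPM in the female and 31.9, 30.3 and 31.8 CPM in the male 8-week libraries, against 43.6 and 42.2 CPM in the female and 43.6 and 41.8 CPM in the male 4-week libraries. Its 4-week libraries lay within 2 CPM of each other, well above every 8-week library. The mean was 32.4 ± 1.84 CPM at 8 weeks and 42.8 ± 0.929 CPM at 4 weeks, and the log2 difference was -0.40 (SE 0.06, edgeR adjusted p = 0.00122).

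Sc5d, the desaturase that puts in the next double bond, had 141.4, 143.1 and 132.2 CPM in the female and 147.1, 144.9 and 136.5 CPM in the male 8-week libraries, against 160.3 and 162.7 CPM in the female and 170.8 and 186.7 CPM in the male 4-week libraries. The groups did not overlap, and library 3 was the lowest in both sexes at 8 weeks. With means of 140.9 ± 5.57 CPM at 8 weeks and 170.1 ± 11.9 CPM at 4 weeks, its log2 difference of -0.27 (SE 0.05, edgeR adjusted p = 0.00517) was the smallest among the 8 genes that passed.

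Dhcr7, the reductase whose product is cholesterol in one branch of the pathway, had 88.9, 92.1 and 88.3 CPM in the female and 90.8, 89.3 and 87.25 CPM in the male 8-week libraries, against 119.3 and 117.0 CPM in the female and 112.7 and 117.1 CPM in the male 4-week libraries. Of the 9 genes it varied least at 8 weeks. Its SD was 1.98% of the mean at 8 weeks and 2.39% at 4 weeks, while for Lss these were 5.67% and 14.1%. Means were 89.5 ± 1.77 CPM at 8 weeks and 116.5 ± 2.78 CPM at 4 weeks. The log2 difference was -0.38 (SE 0.05, edgeR adjusted p = 0.000187).

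**Figure D2:**
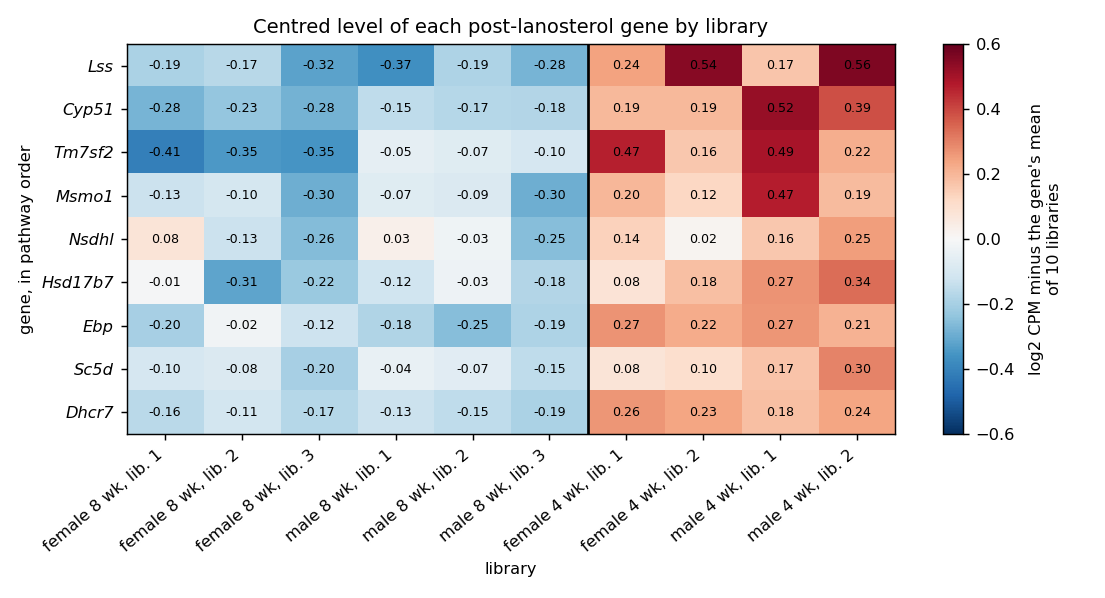
Heat map of the 9 genes (down the page, in pathway order) in the 10 libraries (across, 8 weeks left of 4 weeks and females left of males), coloured by log2 CPM minus that gene's mean over the 10 libraries. All 9 genes are above their own mean in each 4-week library, and in the 8-week libraries no gene but Nsdhl is.

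Averaged over the 9 genes, log2 CPM relative to each gene's own mean was -0.16, -0.17 and -0.25 in the female and -0.12, -0.12 and -0.20 in the male 8-week libraries, against 0.21 and 0.20 in the female and 0.30 and 0.30 in the male 4-week libraries. Library 3 was thus the lowest 8-week library in each sex, and the male 4-week libraries were the highest of all. All 9 genes were above their own mean in every 4-week library. Nsdhl or Sc5d stood least above its mean in 3 of those 4 libraries, and Lss stood most above its mean in library 2 of both sexes.

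The genes did not keep the same proportions. Sc5d made up 15.1% of the summed CPM of the 9 genes at 8 weeks, with a range of 14.96 to 15.2%, and 13.5% at 4 weeks, with a range of 12.6 to 14.4%. Nsdhl made up 6.22% at 8 weeks and 5.44% at 4 weeks, and its ranges of 5.73 to 6.95% at 8 weeks and 5.11 to 5.70% at 4 weeks did not overlap. Cyp51 made up 25.6 ± 0.934% at 8 weeks and 27.6 ± 1.35% at 4 weeks, and Msmo1 25.7 ± 0.930% at 8 weeks and 25.4 ± 1.65% at 4 weeks. These shares follow from the fold changes above and were not tested.

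Levels of different genes were compared per length, using exon lengths of the GENCODE M21 annotation, which is of another build than the counts. Msmo1 was the highest, with 118 ± 8.24 CPM per kilobase at 8 weeks and 157 ± 17.6 CPM per kilobase at 4 weeks. Cyp51 came next, with 60.7 ± 2.41 CPM per kilobase at 8 weeks and 88.65 ± 10.01 CPM per kilobase at 4 weeks, clear of its neighbours on both sides. At 8 weeks Sc5d had 29.0 ± 1.14, Dhcr7 27.0 ± 0.53 and Nsdhl 26.9 ± 2.67 CPM per kilobase. Dhcr7 and Nsdhl were separated by less than their spread at 8 weeks, and Sc5d and Dhcr7 were so at 4 weeks but not at 8 weeks. By the length of the longest transcript Dhcr7 came before Sc5d at 8 weeks. Ebp followed with 18.6 and Tm7sf2 with 14.5 CPM per kilobase at 8 weeks. Hsd17b7 (11.8 ± 0.95) and Lss (10.8 ± 0.61 CPM per kilobase at 8 weeks) were the lowest and changed places at 4 weeks, when Lss had 16.8 ± 2.37 and Hsd17b7 15.2 ± 1.15 CPM per kilobase.

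Within females 4 of the 9 genes were called lower at 8 weeks, against 1.22% of all tested genes, and within males 7 of the 9, against 2.39%. The females' calls were Lss, Cyp51, Tm7sf2 and Dhcr7, and in males Tm7sf2 and Nsdhl were the genes not called. Every log2 difference was below 0 in both sexes, with a median of -0.36 in females and -0.44 in males. Cyp51 changed by -0.46 (SE 0.06, edgeR adjusted p = 0.00322) in females and -0.62 (SE 0.06, edgeR adjusted p = 0.00025) in males. Dhcr7 changed by -0.40 (SE 0.06, edgeR adjusted p = 0.0106) in females and -0.37 (SE 0.06, edgeR adjusted p = 0.00951) in males. Tm7sf2 had -0.69 (SE 0.12, edgeR adjusted p = 0.0129) in females and -0.44 (SE 0.11, edgeR adjusted p = 0.0649) in males, where it was not called. Msmo1, Hsd17b7, Ebp and Sc5d were not called in females, with log2 differences between -0.36 and -0.22, and were called in males, with -0.49 to -0.32.

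The difference between the sexes was tested itself: for 0 of the 9 genes was the age by sex interaction called, against 0.0129% of all tested genes, and 0 had an unadjusted p under 0.05 in edgeR, with 0 adjusted calls in DESeq2 and limma-voom. The interaction terms, female minus male, ran between -0.26 for Tm7sf2 (95% interval -0.61 to 0.10) and 0.16 for Cyp51 (95% interval -0.02 to 0.35). Within-sex calls moved with single libraries, among the 9 genes and over all genes. In males 3 of the 9 genes were called without male 8-week library 1 or without library 2, 4 without male 8-week library 3 or male 4-week library 1, and 5 without male 4-week library 2. In females 1 was called without female 8-week library 1 or 3, 2 without either 4-week library and 3 without female 8-week library 2. Calls over all genes, 501 in males, were 239, 188 and 258 without male 8-week library 1, 2 or 3. They were 247 without male 4-week library 1 and 1199 without male 4-week library 2. The females' 226 calls over all genes became 62, 141 and 66 without female 8-week library 1, 2 or 3. Without female 4-week library 1 or 2 they became 94 and 68.

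**Figure D3:**
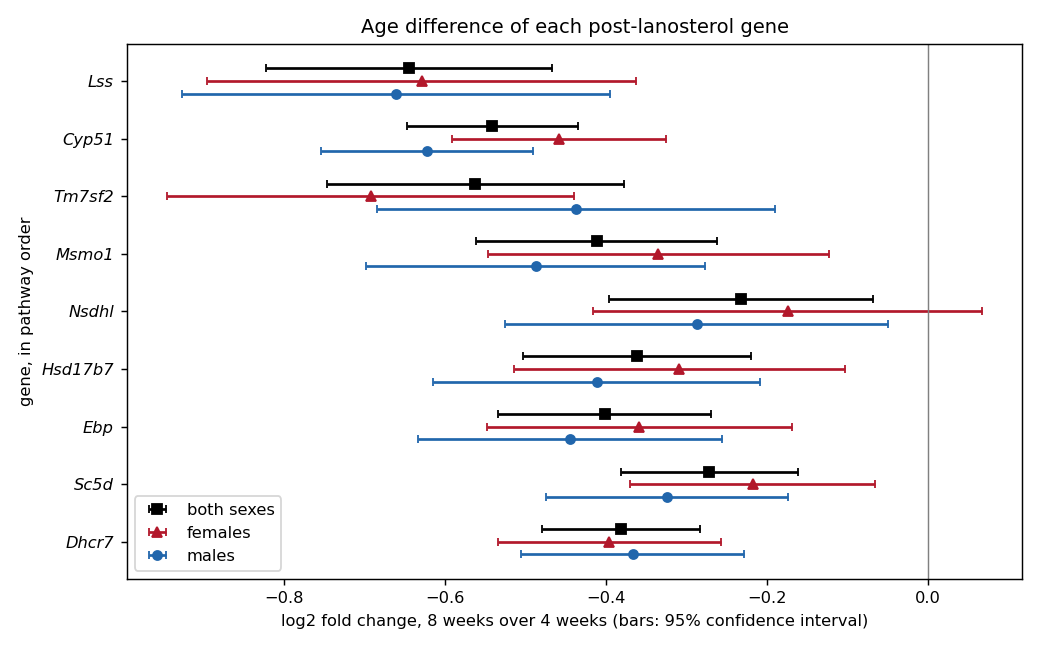
Log2 fold change with age, 8 weeks over 4 weeks, of the 9 genes over both sexes and within females and males; points are edgeR estimates and bars are 95% intervals. All points lie left of 0, and the intervals of females and males overlap for each gene.

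No difference between females and males over both ages passed the test: 0 of the 9 genes were called, against 0.0901% of all tested genes, and 0 in DESeq2 and limma-voom. The median log2 difference, female minus male, was -0.08. Cyp51 (-0.17, unadjusted p = 0.00465, edgeR adjusted p = 0.428) and Tm7sf2 (-0.19, unadjusted p = 0.0454, edgeR adjusted p = 0.670) were the 2 genes with an unadjusted p under 0.05. Of the X-linked genes, Nsdhl had a difference of -0.06 with a 95% interval of -0.22 to 0.10, and Ebp had 0.06 with a 95% interval of -0.07 to 0.19.

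Other genes of the late pathway were set beside them. Lbr, the lamin B receptor, which also has sterol reductase activity, averaged 28.2 ± 1.54 CPM at 8 weeks and 34.7 ± 4.73 CPM at 4 weeks. Its log2 difference was -0.29 (SE 0.08, edgeR adjusted p = 0.0347), and 9 of 22 alternatives kept the call. Erg28, an endoplasmic reticulum scaffold for these enzymes in yeast, had a log2 difference of -0.13 with a 95% interval of -0.33 to 0.07. Faxdc2, listed with them, was not analysed here.

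The enzymes before lanosterol fell too, with 8 of 9 tested genes called lower and a median log2 difference of -0.56. Sqle, the epoxidase just before Lss, averaged 170.0 ± 8.99 CPM at 8 weeks and 251 ± 14.2 CPM at 4 weeks, a fall by 0.56 (SE 0.05, edgeR adjusted p = 2.13e-05). Mvd and Fdps, which make the isoprenoid chain, fell by 0.63 (edgeR adjusted p = 9.23e-05) and 0.60 (edgeR adjusted p = 0.000433). Fdft1, squalene synthase, had -0.18 and was not called (95% interval -0.31 to -0.06, edgeR adjusted p = 0.0800). Hmgcs1, the remaining gene of the list, is listed at 0 in all 10 libraries and was not tested. Of the 9 tested genes 5 were called when both male 4-week libraries were left out, and 5 when male 8-week libraries 2 and 3 were.

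Genes that sense sterol and process SREBP did not pass the test, with 0 of 7 called and a median log2 difference of 0.03. Their log2 differences ran between -0.04 and 0.19, and the gene at 0.19 was the 1 with an unadjusted p under 0.05 in edgeR. Srebf2, which encodes the SREBP that drives the pathway, had -0.04 (95% interval -0.18 to 0.10), and Insig1, an SREBP target that holds the factor in the membrane, had -0.02 (95% interval -0.15 to 0.11). Insig1 averaged 166 ± 8.16 CPM at 8 weeks and 169 ± 17.4 CPM at 4 weeks. Of 7 genes of sterol uptake and esterification 2 were called lower and 5 were not called, with a median log2 difference of 0.01. Npc2, which moves cholesterol out of lysosomes, was 1 of those 2 and fell by 0.44 (SE 0.06, edgeR adjusted p = 0.000668). None of 6 genes of sterol export and LXR signalling passed, with Abca1 at 0.07 and Apoe at -0.06, and none of 6 of oxysterol formation and sterol breakdown did, with Cyp46a1, the neuronal cholesterol hydroxylase, at 0.13 (95% interval -0.04 to 0.31). In edgeR 0 of the export genes and 1 of the breakdown genes had an unadjusted p under 0.05.

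**Figure D4:**
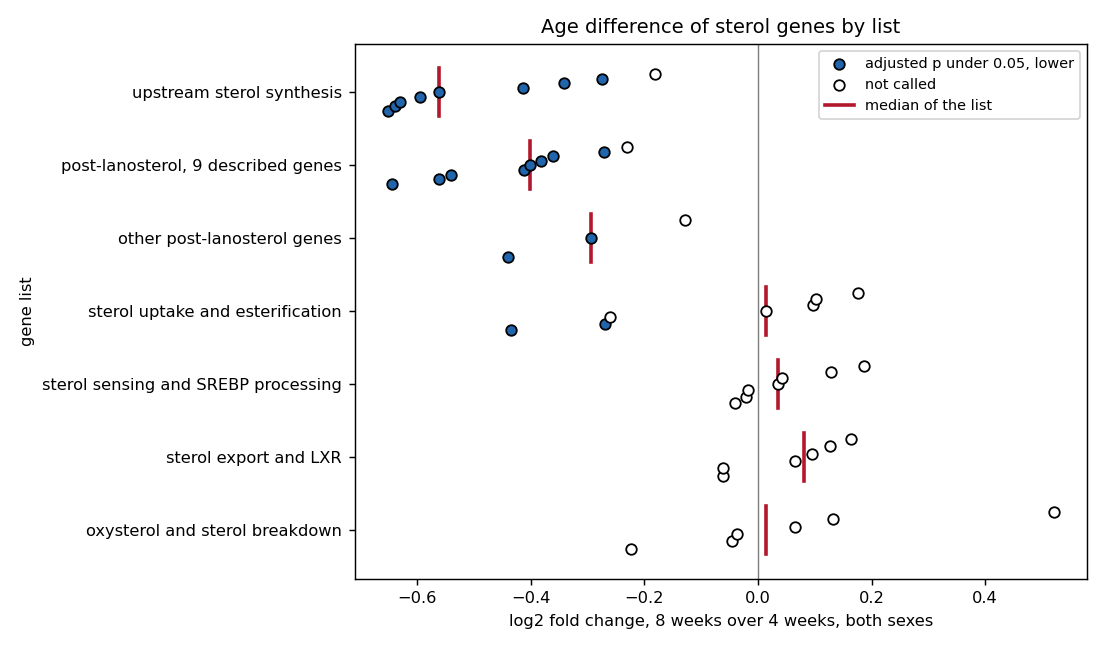
Log2 fold change with age over both sexes, 8 weeks over 4 weeks, of each tested gene of the sterol lists, 1 row per list, filled where the edgeR adjusted p was under 0.05; red bars are list medians. Medians are -0.40 for the 9 genes from Lss to Dhcr7, -0.56 for the enzymes before them and 0.03 for sterol sensing.

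Over the 10 libraries the genes whose centred log2 CPM was most like the mean of the 9 were sought among 10438 genes with a mean of at least 10 CPM. Blzf1 was the closest, with a root mean square difference of 0.0496 log2 units, followed by Abhd5 at 0.0503, Idh1 at 0.0534, Pcyt2 at 0.0558, an identifier with no symbol at 0.0575 and Acss2 at 0.0576. Abhd17b, Heatr3, Npc2 and Gss completed the 10 nearest, at 0.0613 to 0.0678, against a median of 0.247 over all candidates. The 10 libraries share the age difference, and after centring on each of the 4 groups 0 of these 10 genes were among the nearest. Of the 9 genes themselves, which entered the mean, Dhcr7 lay nearest at 0.0575 and Lss farthest at 0.169. Mvk, at rank 40, and Sqle, at rank 42, were the nearest enzymes of the pathway before Lss.

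Markers of oligodendrocytes, the myelinating cells, moved with age in the same libraries. Of 12 markers of mature oligodendrocytes and myelin 10 were called lower, with a median log2 difference of -0.58. Their summed level, led by Mbp, was 38970 to 46580 CPM at 8 weeks and 62290 to 66220 CPM at 4 weeks. Of 8 markers of newly forming oligodendrocytes 5 were lower, Fyn among them, and 1 was higher. Their summed level, led by Bcas1 and Fyn, was 1264 to 1405 CPM at 8 weeks and 1264 to 1373 CPM at 4 weeks. Bcas1 was the higher marker, with 932 to 1035 CPM at 8 weeks and 807 to 884 CPM at 4 weeks, and it made up most of that sum. Of 6 precursor markers 1 was lower, and of 8 astrocyte markers 1, with summed astrocyte levels of 9154 to 11220 CPM at 8 weeks and 9345 to 10420 CPM at 4 weeks. Neuron markers summed to 6829 to 7277 CPM at 8 weeks and 6227 to 6821 CPM at 4 weeks, with 1 of 10 higher. The part of oligodendrocyte content in the fall of the sterol genes was not tested: with the mean of the mature oligodendrocyte markers as a covariate 0 of the 9 genes were called, but 0 of all 15540 genes were either, and the median SE of the 9 was 0.33, against 0.07 without it.

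Markers of several tissues outside the cord fell as well. Of 12 skeletal muscle markers 12 were lower, with summed levels, led by Acta1 and Mylpf, of 39.5 to 153 CPM at 8 weeks and 511 to 2014 CPM at 4 weeks. Of 6 fat markers 6 were lower, at 9.68 to 42.65 CPM at 8 weeks and 43.7 to 229 CPM at 4 weeks. With the mean of the muscle markers as a covariate 0 of the 9 sterol genes and 88 of all genes were called. The median SE was 0.16, against 0.07 without it. That mean, centred and on the log2 scale, was -2.37 to -0.62 at 8 weeks and 1.19 to 3.19 at 4 weeks. The ages did not overlap in it, so the fit cannot tell muscle content and age apart. Its log2 differences were -0.87 (SE 0.19) for Lss, -0.41 (SE 0.16) for Hsd17b7, -0.39 (SE 0.12) for Cyp51 and -0.36 (SE 0.11) for Dhcr7. They were -0.32 (SE 0.21) for Tm7sf2, -0.30 (SE 0.16) for Ebp and -0.25 (SE 0.12) for Sc5d. Nsdhl had -0.09 (SE 0.18) and Msmo1 0.04 (SE 0.12). For the same reason these estimates do not show what age difference remains apart from muscle. Neutrophil and marrow markers were lower in 6 of 6 cases (103 to 180 CPM summed at 8 weeks and 183 to 519 CPM at 4 weeks), erythroid markers in 3 of 5, cartilage and bone markers in 4 of 5, and meningeal markers in 4 of 6. Ptgds, the most abundant of the meningeal markers, was called higher at 8 weeks (log2 difference 0.60, edgeR adjusted p = 0.024). No marker of these lists was at 0 in all libraries, and the part of these tissues, muscle included, in the result on the sterol genes was not tested.

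Adrenal cortex, a steroid-producing tissue, was marked in the male 4-week libraries. Of its 7 tested markers 7 were lower over both sexes, and 0 of 7 within females. Their sum, led by Star and Hsd3b1, was 10.3, 8.995 and 10.8 CPM in the female and 10.4, 11.3 and 9.82 CPM in the male 8-week libraries, against 10.1 and 9.60 CPM in the female and 131 and 97.5 CPM in the male 4-week libraries. Without both male 4-week libraries, when the age difference rests on the female libraries, 6 of the 9 sterol genes and 393 of all genes were called, the sterol genes all lower, with Lss at -0.63 (edgeR adjusted p = 0.00376), Cyp51 at -0.46 (edgeR adjusted p = 0.00053) and Dhcr7 at -0.40 (edgeR adjusted p = 0.00397). Hsd17b7 (-0.31, edgeR adjusted p = 0.124) and Sc5d (-0.22, edgeR adjusted p = 0.110) were no longer called.

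Lung markers, led by Sftpc and Scgb1a1, summed to as much as 792 CPM in male 8-week library 2 and to 90.05 CPM in male 8-week library 3, and to at most 5.88 CPM in the 4-week libraries. Without both of those male libraries 7 of the 9 sterol genes were called over both sexes, with Sc5d at -0.24 no longer called (edgeR adjusted p = 0.0655). Within males this leaves 1 library at 8 weeks, assumed to vary like the other groups, and 0 of the 9 and 15 of all genes were then called, against 501 of all genes with both libraries. The males' log2 differences were -0.61 for Cyp51, -0.75 for Lss and -0.34 for Dhcr7 in that fit. Liver markers, of a tissue that makes much cholesterol, summed to 1.03 to 2.81 CPM at 8 weeks and 1.70 to 5.17 CPM at 4 weeks. The part of liver RNA in the levels of the sterol genes was not tested.

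**Figure D5:**
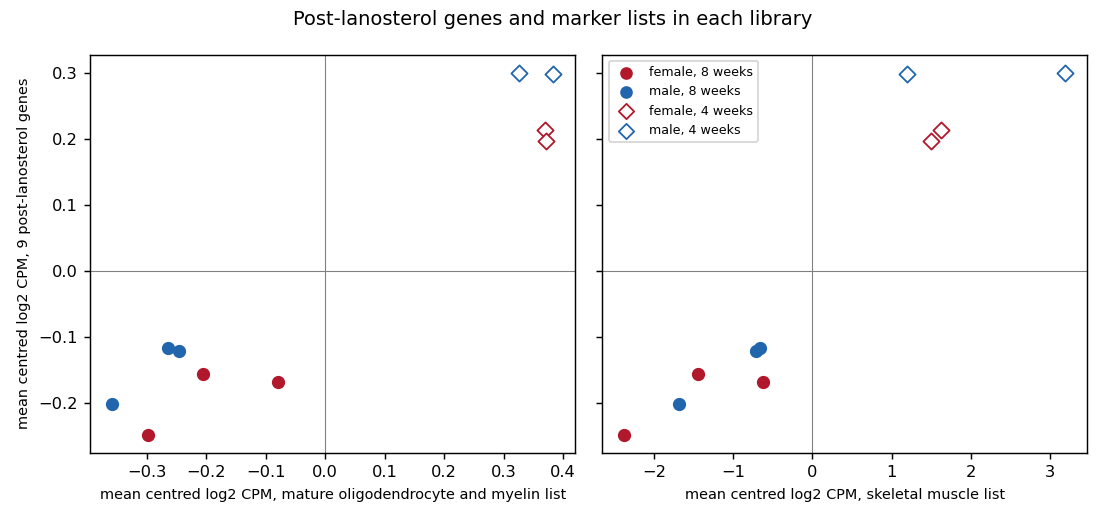
Mean centred log2 CPM of the 9 genes (y axis) against that of the mature oligodendrocyte and myelin markers (left panel) and of the skeletal muscle markers (right panel), 1 point per library, filled for 8 weeks and open for 4 weeks, red for females and blue for males. In both panels the 8-week libraries lie low on both axes and the 4-week libraries high, with oligodendrocyte values of -0.36 to -0.08 at 8 weeks and 0.33 to 0.38 at 4 weeks, and no library lies between.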

How the data were processed

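RNA sequencing of mouse spinal cord gave 10 libraries, grouped by sex and age from the labels. The authors deposited raw read counts per Entrez Gene identifier, 1 table per library, not normalized. The submitters' processing notes name TopHat2 2.1.0, featureCounts and the build mm9. The sources used here give no counting options, strand setting or annotation. Symbols came from a RefSeq table of GRCm38.p6, used for names (24191 of 26301 identifiers matched, 2110 did not). Replicate libraries differed by more than sampling noise (chi-square over degrees of freedom 1.94 to 11.6), so none was treated as a copy of another.

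The quasi-likelihood F test of edgeR 4.0.16 (R 4.3.3) was run on the counts after TMM scaling and filterByExpr (minimum count 10, minimum total 15), two-sided, with p-values adjusted over all tested genes by Benjamini-Hochberg at 0.05. An additive model of sex and age gave the main effects, and a 4-group model gave age within a sex and the interaction, with the spread shared by all libraries. An SE is the absolute log2 fold change over the square root of F, and intervals are at 95%. The edgeR code was also run on simulated counts. These gave every gene the same spread between libraries and added no differences in tissue content, so they do not measure the error rate in these data. DESeq2 1.42.0, limma-voom (limma 3.58.1), other scalings, filters and covariates, a replicate block and left-out libraries were the alternatives. All 9 genes are named, then of each other sterol list the 4 with the lowest p for age and up to 4 that did not pass and averaged at least 10 CPM (some of these genes are not reported here), the 2 most abundant genes of a marker list, and the 10 genes most like the mean of the 9. The genes and lists were chosen with earlier results of these data known.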

Additional observations from a re-analysis of the deposited data

How the results depend on the processing

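Over both sexes 8 of the 9 genes were called lower at 8 weeks, and 17 of 22 alternatives gave 8 again. Leaving out single libraries gave 8 to 9, leaving out both male 4-week libraries (age then rests on females) 6, and male 8-week libraries 2 and 3 7. With the skeletal muscle score as covariate 0 were called, and with the mature oligodendrocyte score 0; both scores separate the ages, and the median SE of the 9 genes grew to 0.16 and 0.33. With the oligodendrocyte score Msmo1 (0.14), Nsdhl (0.38), Sc5d (0.18), Erg28 (0.50) and Fdft1 (0.16) had log2 differences above 0, none of them called. With the muscle score Msmo1 (0.0427), Erg28 (0.38), Fdft1 (0.0805) and Pmvk (0.11) did, none of them called. The other 8 of the 9 genes had values between -0.87 for Lss and -0.09 for Nsdhl with the muscle score. Since both scores separate the ages, the signs in these fits do not show what age difference remains. Within males the 7 calls became 3 to 8 with single libraries left out and 0 without male 8-week libraries 2 and 3, which leaves 1 library in that arm (Cyp51 then at -0.61, Dhcr7 at -0.34). Within females the 4 calls became 1 to 5, and 6 without both male 4-week libraries. For sex and for the interaction 0 of 9 were called under every alternative that gave a value. The labels do not say that the replicate numbers pair the libraries. After centring on each group, correlations of the 13 same-number pairs ran between -0.21 and 0.24, and 5 were over 0.1. By the same measure 2 of 10 libraries lay closest to one of their own number. Centring makes the 2 libraries of a 4-week group mirror each other, so both 4-week pairs gave 0.21. The check cannot decide whether the numbers pair the libraries. With a replicate block 8 of 9 genes were called over both sexes and 6 of 9 within males, against 808 and 478 of all genes. Over all genes the 1028 age calls became 0 with the oligodendrocyte score, 88 with the muscle score, 393 without both male 4-week libraries and 474 without male 8-week libraries 2 and 3. Calls over all genes ranged between 62 and 394 within females (226 as reported), 15 and 1199 within males (501), 9 and 60 for sex (14) and 0 and 2 for the interaction (2). Among the 9 genes the lowest count in a library was 208 (Tm7sf2), and the number of libraries limits the precision.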
